A study of Mus musculus with 12 samples.

Results

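The Notch pathway genes described here are 35 genes that encode Notch receptors, their ligands, the fringe enzymes that add sugars to the receptors, the proteases that cut them, the nuclear partners of the cut receptor, the Hes and Hey transcription factors, and the Numb and Deltex regulators. They were found by their symbols, through the Ensembl mouse identifiers that the files list and the GENCODE M21 annotation of the mouse genome GRCm38. All 35 were present once among the 25700 genes listed. RNA was measured in Schwann cells (SCs) sorted from the sciatic nerves of P5 mice (postnatal day 5) of both sexes, in 12 libraries. All mice carried a heterozygous Cre transgene that is active in the SC lineage, with ReYFP Tg/+ and βAct-DsRed Tg/+, on the C57bl/6J background. The eYFP thus marks cells that have expressed Cre, and DsRed was present in the cells of the nerve in general. After enzymatic dissociation, cells were sorted by eYFP and by side scatter (SSC-A, which rises with the granularity of a cell). The allSC gate took all eYFP-positive SCs, the mSC gate those with high SSC-A, to enrich for myelinating SCs, and the nmSC gate those with low SSC-A, to enrich for SCs that were not myelinating. Each gate had 4 libraries, with 1 mouse per cell suspension, and libraries are named here by the subject number of the labels, mouse 1 to 4, where a gate is an enrichment and not a pure cell type.

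Total counts were between 10092477 and 14482001 per library for allSC, between 10777161 and 16918122 for mSC and between 8180927 and 13077387 for nmSC. Levels are given as CPM, which are counts relative to the total of the library, scaled by the TMM factors of edgeR, which correct for genes that take a large part of a library. These factors ran from 0.744 to 0.871 for mSC and from 1.16 to 1.27 for nmSC. As a check of the gates, 6 myelination genes summed to 132642 to 157750 CPM in mSC and to 13846 to 16056 CPM in nmSC. Conversely, 5 genes of immature or not-myelinating SCs summed to between 236 and 527 CPM in mSC and to between 1476 and 1783 CPM in nmSC, and the proliferation genes Mki67 and Top2a to between 35.5 and 57.8 CPM and between 472 and 608 CPM. The lineage marker Sox10 had a mean of 267 CPM in mSC and 266 CPM in nmSC. The labels of the gates thus matched the markers. The mSC library of mouse 4 stood apart: against the other mSC libraries, the chi-square of its counts per degree of freedom was between 50.6 and 95.7, while it was between 4.03 and 22.1 for the other 15 pairs of libraries of a gate.

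Notch signaling runs between neighboring cells. A ligand of the Delta-like or Jagged family on a cell binds a Notch receptor on the next, the receptor is cut first by an ADAM protease and then by gamma-secretase, and its intracellular domain moves to the nucleus, where it joins the DNA-binding protein Rbpj and a Mastermind-like protein and activates genes such as Hes1, Hey1 and Nrarp. In the SC lineage the pathway is known to promote the generation and division of immature SCs and to oppose myelination.

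The core sequence bound by Rbpj, TGGGAA, was searched on both strands (TTCCCA on the other) in RefSeq promoters of GRCm38.p6 from 250 bases before to 50 bases after the start of a transcript. Entries were found for 29 of the 35 genes, with 37 promoters, and no entry was found for Mfng, Hes1, Hey1, Heyl, Dtx3 and Dtx4. At least 1 match was present in 12 of the 37 promoters (32.4%) and in 25.6% of all 32851 promoters. The longer form GTGGGAA, which contains the core, was present in 6 of the 37 (16.2%) and in 6.38% of all promoters, and these 6 belonged to Hes5, Hes7, Hey2, Lfng, Psen2 and Spen. A match describes letters and not binding. The promoters of 3 genes are shown, as 250 bases up to the transcript start, written 5′ to 3′ on the strand of the gene. They were chosen because Hes5 and Hey2 are textbook targets of Notch, and Lfng because it was the only fringe gene to pass the test between mSC and nmSC. The core on either strand is in capitals.
Hes5, chr4:154960673-154960922, plus strand: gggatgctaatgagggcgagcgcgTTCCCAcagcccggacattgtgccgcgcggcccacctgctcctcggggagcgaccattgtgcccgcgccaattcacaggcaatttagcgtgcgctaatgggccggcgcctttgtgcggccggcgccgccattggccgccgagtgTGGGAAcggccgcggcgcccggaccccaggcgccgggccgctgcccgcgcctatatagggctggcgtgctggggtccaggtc
Hey2, chr10:30842784-30843033, minus strand: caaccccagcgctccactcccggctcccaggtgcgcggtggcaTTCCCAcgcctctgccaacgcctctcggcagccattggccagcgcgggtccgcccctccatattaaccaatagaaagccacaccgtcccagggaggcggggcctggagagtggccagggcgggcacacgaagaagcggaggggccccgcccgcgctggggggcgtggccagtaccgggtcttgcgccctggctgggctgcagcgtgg
Lfng, chr5:140607091-140607340, plus strand: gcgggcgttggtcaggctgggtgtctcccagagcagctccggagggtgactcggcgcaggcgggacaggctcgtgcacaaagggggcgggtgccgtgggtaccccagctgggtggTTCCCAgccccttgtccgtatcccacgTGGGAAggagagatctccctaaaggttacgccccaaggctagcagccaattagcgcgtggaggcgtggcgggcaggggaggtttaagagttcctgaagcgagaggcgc
In these windows Hes5 had the longer form once on each strand, Hey2 had it once on the strand opposite to the gene, and Lfng had it once, beside a core without the leading G on the other strand. A further Hey2 match runs across the transcript start and is not shown whole. The promoters of Notch1, Notch2, Jag1 and Adam10 held no match in this window. Hes5 and Hey2 were low in every gate, as given below.

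Of the 35 genes, 30 had enough counts to be tested, and 15 of these differed between mSC and nmSC at an adjusted p under 0.05 (edgeR quasi-likelihood test, adjusted over all 18597 genes tested). This was 50% of the members tested, beside 40.5% of all genes. Notch2, Adam10, Lfng, Hes6 and Numbl were higher in mSC (5 genes, beside 20.4% of all genes), and Notch1, Jag1, Rbpj, Maml2, Maml3, Spen, Hes1, Hey1, Numb and Dtx4 were lower (10 genes, beside 20.1% of all genes). The median log2 fold change over the 30 members was -0.37, and over all genes -0.16. For 12 of the 30 members (40%, beside 34.2% of all genes) the ranges of the 4 mSC and 4 nmSC libraries did not overlap. In each of the 15 genes that passed, all 4 pairs of libraries with the same subject number showed the direction of the mean. These genes were picked by the test on the same libraries, so this is no further support. Of the 15 members that did not pass, 3 had an unadjusted p under 0.05, namely Psen2, Psenen and Maml1. The 3 comparisons between gates given here share libraries, and so do not support one another. In these bulk samples, fewer cells of a type and less RNA per cell cannot be told apart.

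**Figure D1:**
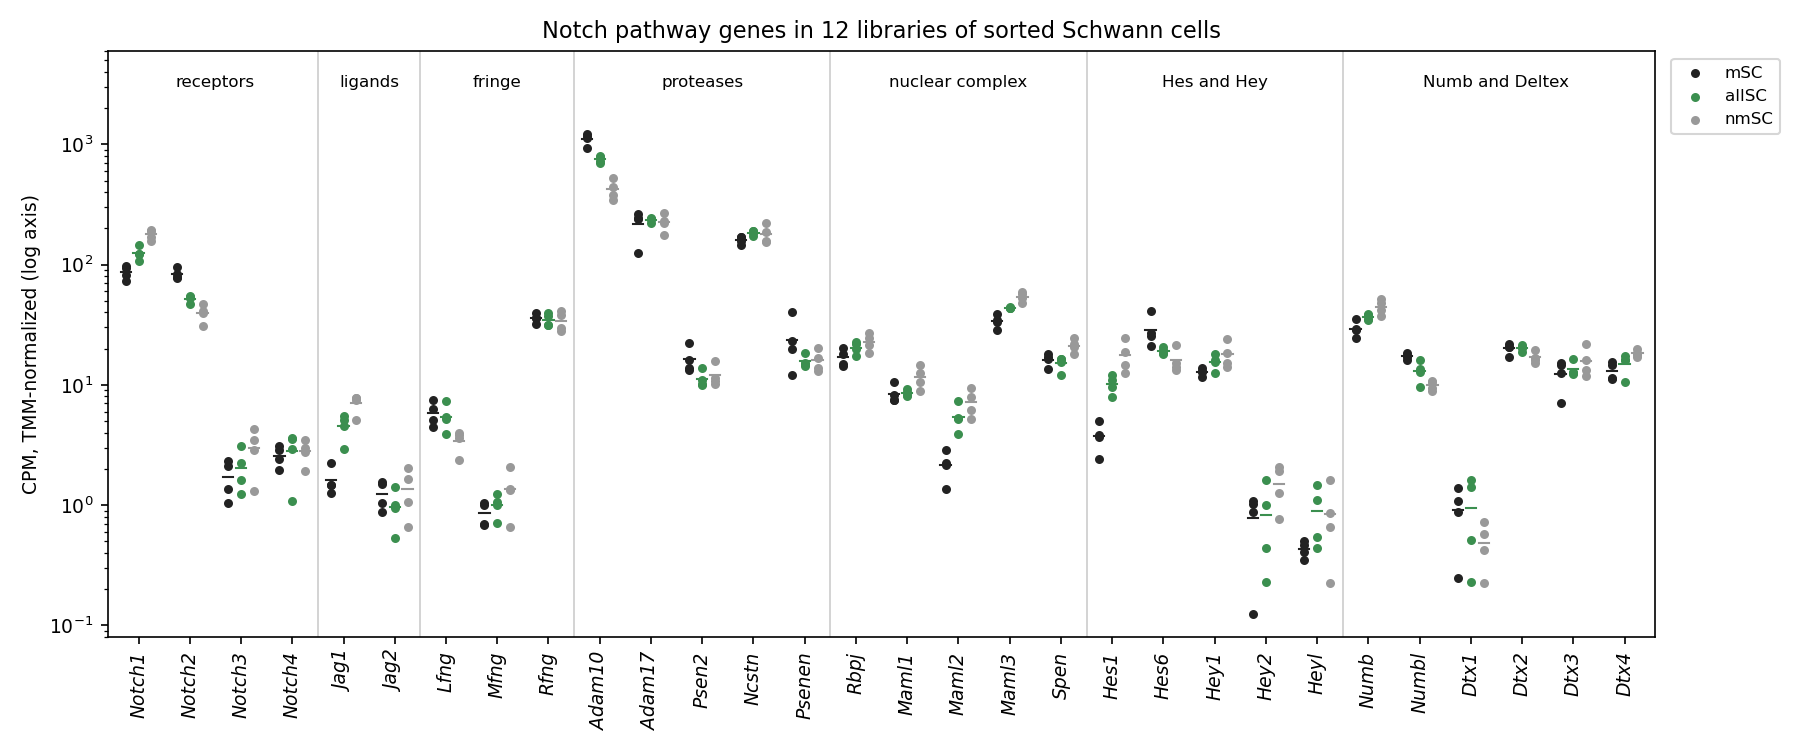
Level of the 30 tested Notch pathway genes in CPM on a log axis, with 1 point per library, a short line at the mean of the 4 libraries of a gate, and genes ordered by role. Adam10 lay highest, between 347 and 1213 CPM, and Hes1 and Jag1 showed no overlap between the mSC points and the nmSC points.

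**Figure D2:**
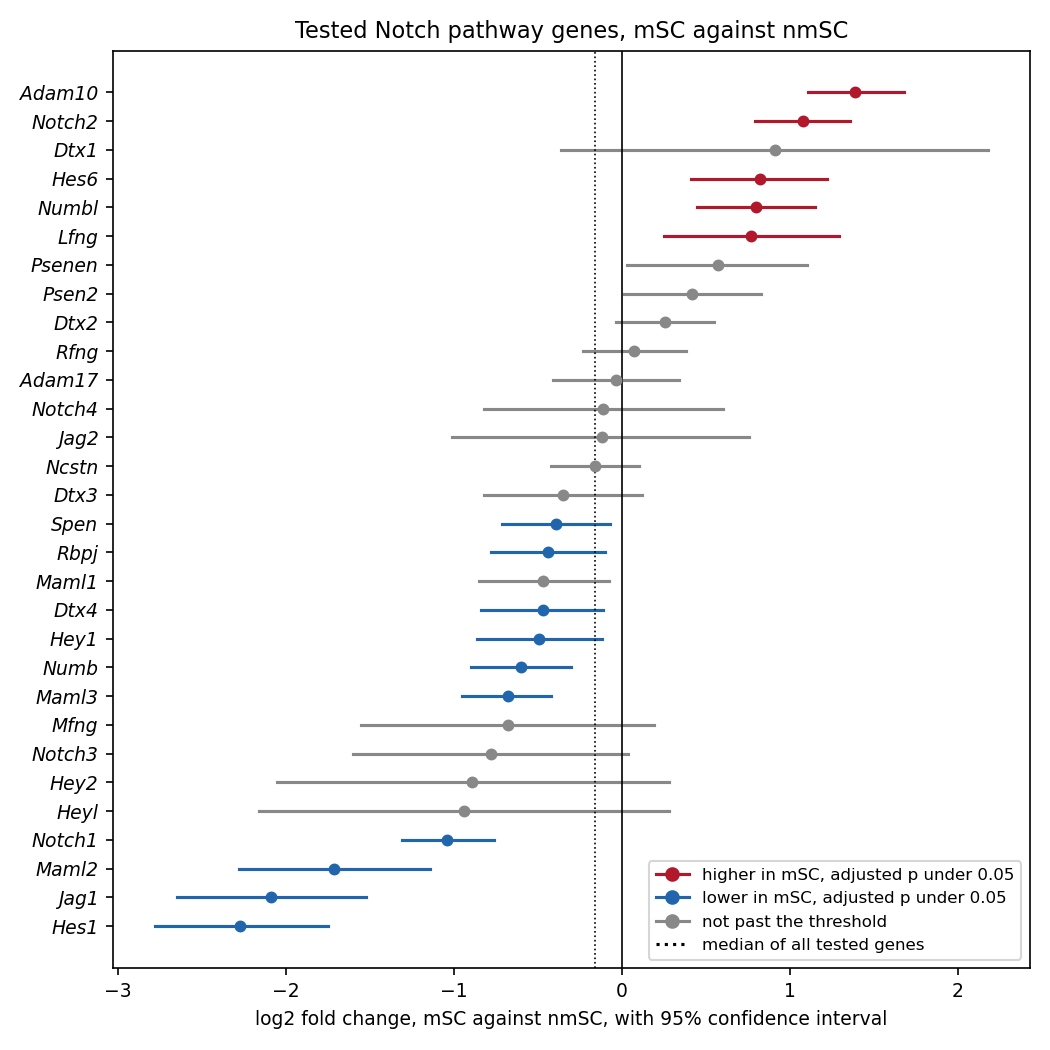
Log2 fold change between mSC and nmSC for the 30 tested genes (points) with 95% confidence intervals (lines), where values above 0 mean higher in mSC and the dotted line marks the median of all genes tested. Intervals are wide for genes with few counts, such as Dtx1, Hey2 and Heyl, and the interval of Hes1 runs from -2.78 to -1.75.

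The receptors Notch1 and Notch2 changed in opposite directions. Notch1 (ENSMUSG00000026923, chromosome 2, 26457903 to 26516663, minus strand) was at 81.5, 73.5, 97.8 and 94.1 CPM in the mSC libraries of mice 1 to 4, at 107, 123, 145 and 123 CPM in allSC and at 171, 158, 189 and 194 CPM in nmSC. Every mSC library lay below every allSC library, and these below every nmSC library. The mean was 86.7 CPM ± 11.2 (SD, n = 4) in mSC and 178 CPM ± 16.3 (n = 4) in nmSC, a 2.05-fold lower level in mSC (log2 fold change -1.04, SE 0.132, adjusted p = 3.33e-06). Exons of Notch1 share 1482 bases with genes on the opposite strand, 0610009E02Rik and Gm13568. The library method keeps no record of strand, so reads there cannot be told apart. Notch2 (ENSMUSG00000027878, chromosome 3, 98013527 to 98150361, plus strand) was at 83.6, 79.2, 78 and 94.9 CPM in mSC, at 52.4, 54.4, 54.2 and 46.9 CPM in allSC and at 47, 30.7, 39.9 and 41.5 CPM in nmSC. All mSC libraries were above all others, whereas the lowest allSC library was just under the highest nmSC library. Notch2 was 2.11-fold higher in mSC than in nmSC (log2 fold change 1.08, SE 0.138, adjusted p = 3.59e-06). Its exons share 541 bases with Gm42820 on the same strand. Both differences passed the threshold without any of the 8 libraries in turn.

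Notch3, a receptor best known from vascular smooth muscle cells and pericytes, and Notch4, best known from endothelial cells, were low. Notch3 was at 2.1, 1.04, 2.33 and 1.37 CPM in mSC and at 2.88, 4.33, 3.51 and 1.32 CPM in nmSC, with overlapping ranges (log2 fold change -0.78, SE 0.389, 95% confidence interval -1.60 to 0.034, adjusted p = 0.115). Notch4 was at 2.85, 2.43, 1.94 and 3.12 CPM in mSC and at 2.78, 3.48, 2.99 and 1.91 CPM in nmSC (log2 fold change -0.11, SE 0.338, 95% confidence interval -0.82 to 0.60, adjusted p = 0.806). These intervals leave room for changes in either direction. Pericyte and smooth muscle markers, 7 genes, summed to between 76.5 and 198 CPM in mSC and between 79.4 and 121 CPM in nmSC. Pdgfrb made up the most of this sum. Acta2 and Rgs5 had means of 0.83 and 1.76 CPM in mSC and of 1.09 and 0.791 CPM in nmSC. Pdgfrb was called higher in mSC (log2 fold change 1.09). Myh11 and Cspg4 were called lower (log2 fold changes of -1.09 and -0.98), and the others were not called. Endothelial markers, 8 genes, summed to between 53.8 and 74.7 CPM in mSC and between 19.4 and 33.7 CPM in nmSC. Kdr and Egfl7 carried this sum, whereas 5 of the 8 were at most at 5 CPM in every library. Of the 7 tested, Kdr and Egfl7 were called higher in mSC (log2 fold changes of 1.80 and 1.94). Pecam1, Tek and Flt1 were called lower (log2 fold changes of -0.95, -1.12 and -1.25). The defining marker Cdh5 had means of 0.427 CPM in mSC and 1.03 CPM in nmSC, and neither it nor Emcn was called. The part of such cells in the levels of Notch3 and Notch4 was not tested.

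To compare receptors with one another, counts were divided by the length of the union of the exons of each gene, and the share of each receptor in the sum of the 4 was taken in each library. Notch2 made up 55, 56.7, 49.4 and 55.1% in mSC, 38.5, 34.9, 31.6 and 31.9% in allSC and 25.6, 19.1, 20.8 and 21.5% in nmSC, with no overlap between gates. Notch1 made up 42.2% ± 3.21 (SD, n = 4) in mSC, 61.6% ± 2.36 in allSC and 73.9% ± 2.52 in nmSC. The same length divides the counts of a gene in every library. The direction of the shift toward Notch2 in mSC therefore hardly depends on the length chosen. Which receptor led in mSC did depend on the length, and was not fixed by the data. With the length of the longest transcript, Notch1 made up 51.5% and Notch2 45.1% in mSC. In nmSC, Notch1 led with either length. These shares rest on between 1552 and 3620 summed receptor counts per library. They are described and not tested, because they follow from the levels tested above.

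**Figure D3:**
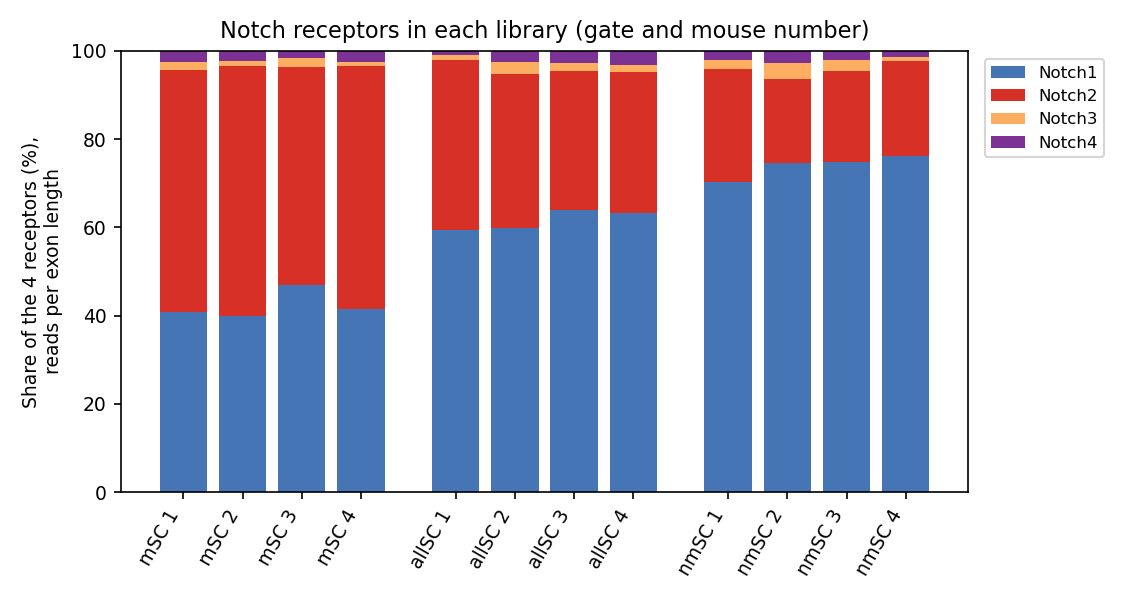
Share of each Notch receptor (%) in the sum of the 4 receptors, from counts divided by the length of the union of exons, with 1 stacked bar per library, named by gate and mouse. The Notch2 part spans 49.4 to 56.7% in mSC, 31.6 to 38.5% in allSC and 19.1 to 25.6% in nmSC.

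Of the 2 ligand genes tested, Jag1 passed and Jag2 did not. Jag1 (ENSMUSG00000027276, chromosome 2, 137081456 to 137116644, minus strand) was at 2.24, 1.48, 1.47 and 1.25 CPM in mSC, at 4.51, 5.08, 2.92 and 5.53 CPM in allSC and at 7.78, 7.47, 5.08 and 7.7 CPM in nmSC. The mSC libraries were below all others, and allSC overlapped nmSC. The level was 4.25-fold lower in mSC than in nmSC (log2 fold change -2.09, SE 0.269, adjusted p = 3.89e-06), and the difference passed without any library in turn. Jag2 was at 0.882, 1.04, 1.55 and 1.5 CPM in mSC and at 1.06, 2.04, 1.64 and 0.659 CPM in nmSC (log2 fold change -0.12, SE 0.424, adjusted p = 0.832). The Delta-like ligands Dll1, Dll3 and Dll4 had 46, 58 and 53 counts in all over the 12 libraries and were left out by the filter on low counts. Without that filter, Dll1 passed between mSC and allSC (adjusted p = 0.0452), where its levels were 0, 0.0868, 0.155 and 0 CPM and 1.09, 0.134, 0.539 and 0.302 CPM, and Dll3 and Dll4 passed in no comparison. Each of Dll1 and Dll3 had 2 of the 4 mSC libraries at 0, which allows up to 3 counts per library.

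All 5 ligands together had between 27 and 53 counts per library in mSC, between 62 and 108 in allSC and between 106 and 136 in nmSC. Per exon length, Jag1 took 47.2% ± 9.32 (SD, n = 4) of the ligand reads in mSC and 67.5% ± 12.2 in nmSC, with overlapping ranges, and Jag2 took 31% ± 8.79 and 10.7% ± 4.39, with no overlap. To place low values, the 95th percentile of CPM per kilobase of exon over 1450 olfactory and vomeronasal receptor genes was taken in each gate. It was 0.514 in mSC, 0.663 in allSC and 0.739 in nmSC. Notch3, Notch4, Dll1, Dll3, Dll4, Jag2, Mfng, Hes5, Hes7, Hey2, Heyl and Dtx1 (12 members) were at or under it in every gate, and Jag1 and Maml2 only in mSC, where Jag1 had a mean of 0.276 CPM per kilobase.

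Marker sums of other kinds are given beside these results. The proliferation genes, as given above, and the sum of the fibroblast markers were lower in mSC, as were Jag1, Notch1 and Hes1. Of the 5 fibroblast markers tested, only Col1a1 was called lower. Dcn had means of 12.8 CPM in mSC and 8.48 CPM in nmSC and was not called. Fibroblast markers, 6 genes, summed to between 423 and 1031 CPM in mSC and between 2921 and 4101 CPM in nmSC, carried by Col1a1 (means of 786 and 3420 CPM), while 4 of the 6 were at most at 5 CPM in every library, and Pdgfra had means of 2.34 and 2.35 CPM. Immune markers, 5 genes, summed to between 14.1 and 22.6 CPM in mSC and between 18.8 and 27.9 CPM in nmSC. Csf1r (means of 11.5 and 11.6 CPM) and Ptprc (5.67 and 8.8 CPM) carried this sum. Of the 4 tested, only Cd68 was called, lower in mSC. Aif1, with 18 counts in all, was at 0 in mSC and was not tested. Perineurial markers, 4 genes, summed to between 62.1 and 74 CPM and between 56 and 65.9 CPM. Slc2a1 was called higher in mSC (means of 56.8 and 36.9 CPM) and Cldn1 lower (10.3 and 24.4 CPM). Lypd2, with 20 counts in all, was at 0 in mSC and was not tested. The part of these cells in the results was not tested.

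The fringe genes encode glycosyltransferases that alter which ligand a Notch receptor answers to. Lfng (ENSMUSG00000029570, chromosome 5, 140607320 to 140615545, plus strand) was at 5.09, 6.25, 7.52 and 4.49 CPM in mSC, at 5.38, 3.88, 5.16 and 7.34 CPM in allSC and at 3.94, 2.38, 3.81 and 3.62 CPM in nmSC. All mSC libraries were above all nmSC libraries, by little, and allSC overlapped both. Lfng was 1.7-fold higher in mSC than in nmSC (log2 fold change 0.77, SE 0.249, adjusted p = 0.0197). The call was lost without the mSC library of mouse 3 (adjusted p = 0.0753) or the nmSC library of mouse 2 (adjusted p = 0.0684). Rfng was the most abundant fringe gene per exon length, at 14.4 CPM per kilobase in mSC and 13.7 in nmSC, and its difference did not pass (log2 fold change 0.074, SE 0.147, adjusted p = 0.705). Mfng had means of 0.854 and 1.36 CPM (adjusted p = 0.196).

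Adam10, the protease that makes the first cut of a receptor bound by its ligand, had the highest level of all members. Adam10 (ENSMUSG00000054693, chromosome 9, 70678997 to 70780229, plus strand) was at 1213, 1119, 1166 and 932 CPM in mSC, at 782, 698, 723 and 803 CPM in allSC and at 347, 378, 440 and 523 CPM in nmSC. The gates did not overlap, and allSC lay between the others. The mean was 1107 CPM ± 123 (SD, n = 4) in mSC and 422 CPM ± 77.9 in nmSC, a 2.62-fold higher level in mSC (log2 fold change 1.39, SE 0.137, adjusted p = 1.04e-07). Per kilobase of exon it was at 225 CPM in mSC and 85.9 in nmSC, at the 99.1 and 98.1 percentiles of all genes tested. The enzyme cuts many other membrane proteins as well.

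The other proteases did not pass with all libraries in the edgeR test. Adam17, a related protease, was at 263, 238, 246 and 125 CPM in mSC and at 176, 230, 223 and 267 CPM in nmSC (log2 fold change -0.037, SE 0.18, adjusted p = 0.882). The mSC library of mouse 4, which stood apart, was the lowest of all, and the log2 fold change without it was 0.16. Of the gamma-secretase genes, Psen2 encodes a catalytic subunit, Ncstn the subunit that receives the substrate and Psenen a subunit needed for the activation of the complex. Psenen was at 12.1, 19.9, 23.2 and 40.1 CPM in mSC and at 20.3, 16.8, 13.7 and 13 CPM in nmSC (log2 fold change 0.57, SE 0.256, adjusted p = 0.0844). The library of mouse 4 was here the highest, and without it the log2 fold change was 0.21 (adjusted p = 0.396). Without the mSC library of mouse 1, the lowest, it was 0.81 and passed (adjusted p = 0.00454), as it did with the Wald test of DESeq2 (adjusted p = 0.0426). Psen2 also passed with that test, and without the mSC library of mouse 1 (adjusted p = 0.0422) or the nmSC library of mouse 3 (adjusted p = 0.0267). With all libraries, Psen2 had a log2 fold change of 0.42 (SE 0.196, adjusted p = 0.0909) and Ncstn of -0.16 (SE 0.126, adjusted p = 0.315).

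Of the 5 genes of the nuclear complex, 4 were lower in mSC, beside 20.1% of all genes. Maml2 and Maml3 were lower with every scaling tried below, whereas Rbpj and Spen were not called with the size factors of DESeq2. Maml2, a Mastermind-like coactivator (ENSMUSG00000031925, chromosome 9, 13297957 to 13709388, plus strand), was at 2.24, 2.86, 2.17 and 1.37 CPM in mSC, at 5.31, 3.88, 7.31 and 5.23 CPM in allSC and at 7.97, 5.18, 6.12 and 9.48 CPM in nmSC. The mSC libraries were below all others. Maml2 was 3.27-fold lower in mSC than in nmSC (log2 fold change -1.71, SE 0.273, adjusted p = 4.93e-05). Its exons share 101 bases with Gm22643 on the same strand. Maml3 (ENSMUSG00000061143, chromosome 3, 51685907 to 52105076, minus strand) was more abundant, at 33.6, 38.5, 34.4 and 28.3 CPM in mSC and at 59.1, 48.2, 57 and 52.4 CPM in nmSC, with no overlap. It was 1.61-fold lower in mSC (log2 fold change -0.68, SE 0.126, adjusted p = 0.000244). The decreases of Maml2 and Maml3 passed without any library in turn. Maml1, the third coactivator, was close to the threshold and did not pass (log2 fold change -0.47, SE 0.184, adjusted p = 0.051).

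Rbpj, the DNA-binding protein of the pathway, and Spen, a corepressor that binds it, had smaller changes that depended on single libraries. Rbpj (ENSMUSG00000039191, chromosome 5, 53466152 to 53657362, plus strand) was at 20.2, 18.1, 14.8 and 14.3 CPM in mSC and at 21.6, 24.7, 18.4 and 26.9 CPM in nmSC, with overlapping ranges (log2 fold change -0.44, SE 0.161, adjusted p = 0.0367). Its call was lost without the mSC library of mouse 2, 3 or 4 (adjusted p = 0.0609, 0.119 and 0.0714) or the nmSC library of mouse 2 or 4 (adjusted p = 0.0989 and 0.122). Spen (ENSMUSG00000040761, chromosome 4, 141467890 to 141538597, minus strand) was at 16.4, 16.9, 13.5 and 17.9 CPM in mSC and at 21.7, 17.9, 20.8 and 24.3 CPM in nmSC (log2 fold change -0.39, SE 0.154, adjusted p = 0.0495). The highest mSC library lay at the lowest nmSC library. Exons of Spen share 41 bases with Zbtb17 on the opposite strand. The call was lost without the mSC library of mouse 1, 2 or 3 (adjusted p = 0.0756, 0.0904 and 0.179) or the nmSC library of mouse 1, 3 or 4 (adjusted p = 0.0914, 0.072 and 0.145), and also with the mouse as a block (adjusted p = 0.0641).

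Hes1, a transcriptional repressor and textbook target of Notch, had the largest log2 fold change of the 30 members tested. Hes1 (ENSMUSG00000022528, chromosome 16, 30064384 to 30067796, plus strand) was at 3.66, 3.82, 2.4 and 4.99 CPM in mSC, at 12.1, 10.9, 9.54 and 7.94 CPM in allSC and at 24.7, 18.9, 14.6 and 12.6 CPM in nmSC. The mSC libraries were the lowest and the nmSC libraries the highest, with allSC between them and no overlap. The level was 4.81-fold lower in mSC than in nmSC (log2 fold change -2.27, SE 0.244, adjusted p = 3.61e-07), and this passed without any library in turn.

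Of the other Hes and Hey genes tested, 1 was higher in mSC, 1 was lower and 2 did not pass. Hes6, which is known to antagonize Hes1 in neural cells, was higher in mSC. Hes6 (ENSMUSG00000067071, chromosome 1, 91411483 to 91414038, minus strand) was at 21, 25.5, 27 and 41.3 CPM in mSC and at 14.2, 13.4, 21.6 and 15.3 CPM in nmSC (log2 fold change 0.82, SE 0.194, adjusted p = 0.00238). The ranges overlapped by a single nmSC library, and the highest value belonged to the mSC library that stood apart. Without it the log2 fold change was 0.60 (adjusted p = 0.00528). Hey1, a Notch target of the related Hey family (ENSMUSG00000040289, chromosome 3, 8663359 to 8667256, minus strand), was at 11.7, 13.1, 13.7 and 12.7 CPM in mSC and at 18.5, 24, 14.1 and 15.2 CPM in nmSC (log2 fold change -0.49, SE 0.177, adjusted p = 0.0341). The gates did not overlap, but the gap was small. The call of Hey1 was lost without the mSC library of mouse 1, 2 or 3 (adjusted p = 0.0743, 0.0691 and 0.0553) or the nmSC library of mouse 1 or 2 (adjusted p = 0.068 and 0.174). Hey2 and Heyl had means between 0.43 and 1.51 CPM in mSC and nmSC and did not pass (adjusted p = 0.208 and 0.201). Hes5 and Hes7 had 5 and 27 counts over the 12 libraries and were left out by the filter, and without it no difference in them was detectable (adjusted p = 0.486 and 0.844).

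Numb and Numbl encode related adaptor proteins that are known to restrain Notch signaling, and they changed in opposite directions, although Numbl was not called with library size alone. Numb (ENSMUSG00000021224, chromosome 12, 83794034 to 83921934, minus strand) was at 28.6, 35.6, 29.2 and 24.3 CPM in mSC and at 37, 41.8, 52 and 47.7 CPM in nmSC, with no overlap, and was 1.52-fold lower in mSC (log2 fold change -0.60, SE 0.143, adjusted p = 0.00252). Numbl (ENSMUSG00000063160, chromosome 7, 27258433 to 27282144, plus strand) was at 18.4, 17.2, 17.6 and 16 CPM in mSC and at 8.83, 10.8, 10.6 and 9.48 CPM in nmSC. Its libraries were close together within each gate, and it was 1.74-fold higher in mSC (log2 fold change 0.80, SE 0.166, adjusted p = 0.000733). Per kilobase of exon Numb stayed above Numbl in both gates, at 7.51 and 1.99 CPM in mSC and 11.4 and 1.14 CPM in nmSC. Exons of Numb share 166 bases with Gm46367 on the opposite strand, and those of Numbl 85 bases with Gm44641 on the same strand.

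Of the Deltex genes, which encode ubiquitin ligases, only Dtx4 passed. Dtx4 (ENSMUSG00000039982, chromosome 19, 12466338 to 12501454, minus strand) was at 11.3, 15.5, 14.7 and 11.1 CPM in mSC and at 18.3, 20, 17.8 and 16.9 CPM in nmSC, with no overlap (log2 fold change -0.47, SE 0.174, adjusted p = 0.0371). The call was lost without the mSC library of mouse 1 or 4 (adjusted p = 0.0947 and 0.0696) or the nmSC library of mouse 1, 2 or 3 (adjusted p = 0.0658, 0.103 and 0.0555). Dtx1, Dtx2 and Dtx3 had log2 fold changes of 0.91, 0.26 and -0.35 and adjusted p of 0.237, 0.142 and 0.217. That a Deltex gene did not pass does not show that it was equal in the gates, since the 95% confidence interval of Dtx1 ran from -0.36 to 2.18.

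The scaling of the libraries bears on these calls, because myelin genes take a larger part of the mSC libraries. Under the 4 scalings tried, the median log2 fold change of all genes between mSC and nmSC was -0.16 with TMM, -0.10 with the size factors of DESeq2, -0.52 with library size without the 50 genes with the most counts, and -0.73 with library size alone. A scaling shifts the log2 fold changes of all genes by nearly the same amount. The distance of a member from that median is therefore nearly fixed by arithmetic, and moved by at most 0.0448. Relative to the median, Adam10 was 1.55 higher, Notch2 1.24 higher, Notch1 0.87 lower, Jag1 1.92 lower and Hes1 2.10 lower with TMM on the log2 scale. Notch2 and Adam10 were called higher with all 4 scalings, and Notch1, Jag1, Maml2, Maml3, Hes1 and Numb were called lower with all 4. Hes6, Numbl and Lfng were not called with library size alone (log2 fold changes of 0.24, 0.24 and 0.22), and Lfng was also not called without the 50 genes (adjusted p = 0.166). Conversely, Rbpj, Spen, Hey1 and Dtx4 were not called with the size factors of DESeq2 (adjusted p = 0.0689, 0.0977, 0.0627 and 0.0711). The calls of all genes were split evenly with TMM (50.3% higher), while 12.2% were higher with library size alone.

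**Figure D4:**
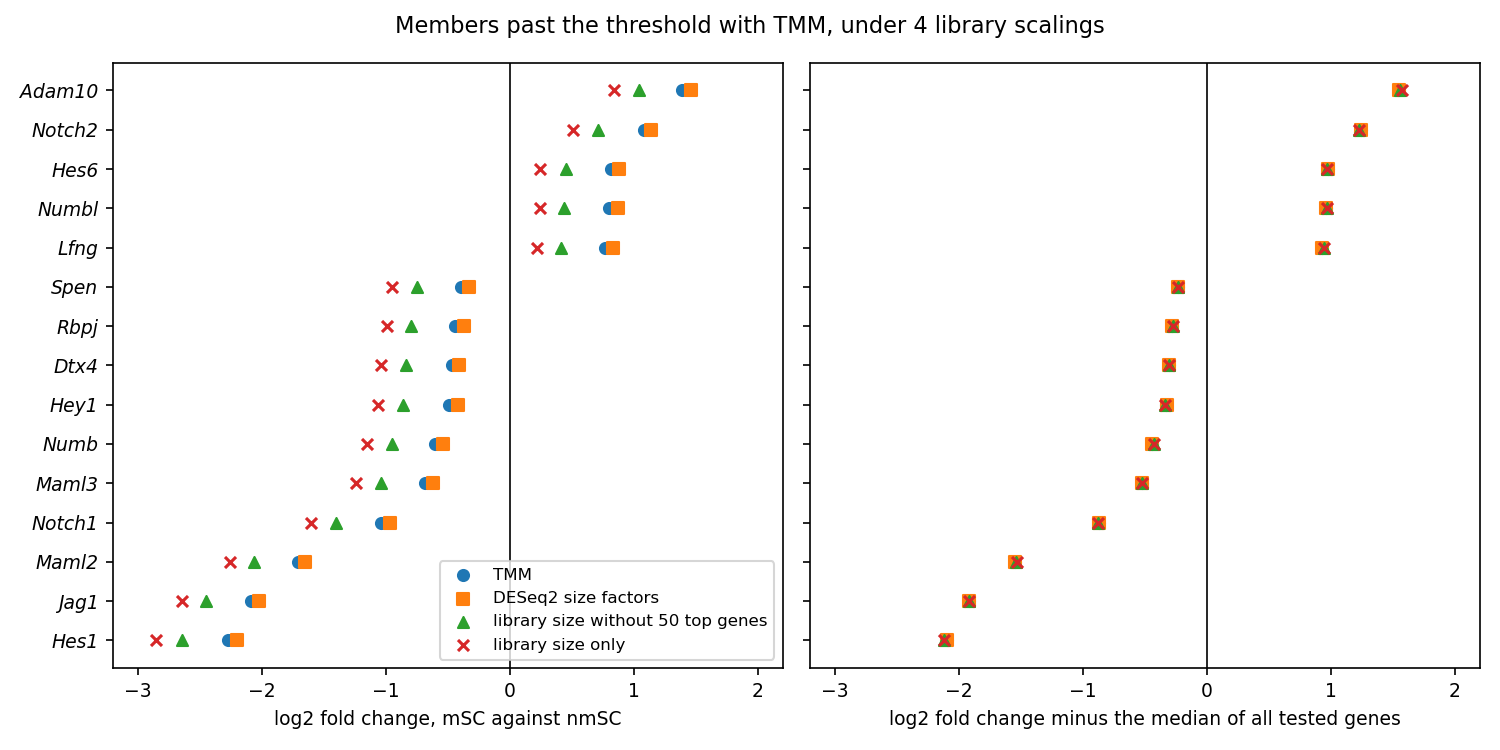
Log2 fold change between mSC and nmSC of the 15 members past the threshold with TMM, under 4 library scalings (markers), on the left as fitted and on the right after subtracting the median of all genes tested under that scaling. The markers of a gene spread on the left and fall on top of each other on the right, where Hes1 lies between -2.12 and -2.10. The subtraction takes out the shift that a scaling gives to all genes, so this overlap follows by arithmetic.

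The allSC gate, which holds cells of the other gates, was compared with each of them. Between mSC and allSC, 8 members differed, beside 17.6% of all genes. Notch2, Adam10 and Hes6 were higher in mSC (3 members, beside 8.76% of all genes), with log2 fold changes of 0.69, 0.56 and 0.58 (adjusted p = 0.00147, 0.00674 and 0.0441). Notch1, Jag1, Maml2, Maml3 and Hes1 were lower (5 members, beside 8.80%), with log2 fold changes of -0.52, -1.45, -1.30, -0.37 and -1.47 (adjusted p = 0.00936, 0.000906, 0.00249, 0.0475 and 0.000265). Hes6 and Maml3 were not called with the mouse as a block (adjusted p = 0.0558 and 0.0674), and Notch1 was not called without the mSC library of mouse 2 or the allSC library of mouse 3 (adjusted p up to 0.0585). With library size alone, none was higher and 9 were lower, beside 23.5% of all genes called, of which 9.52% were higher. With library size less the 50 most counted genes, Notch2 alone was higher and 7 were lower. Of all genes, 18.1% were then called, of which 19.1% were higher. Of the 8 fits that left out a library, Hes6 was called only in the 1 without the mSC library of mouse 1 (adjusted p up to 0.108 in the others), and Maml3 was called in none (adjusted p up to 0.122).

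Between allSC and nmSC, 4 members differed, beside 10.4% of all genes. Adam10 was higher in allSC (1 member, beside 7.55%), with a log2 fold change of 0.83 (SE 0.135, adjusted p = 0.000283). Notch1, Spen and Hes1 were lower in allSC (3 members, beside 2.82%), with log2 fold changes of -0.52, -0.49 and -0.80 (adjusted p = 0.0137, 0.0467 and 0.0252). Spen was not called with the mouse as a block (adjusted p = 0.0677). Adam10 passed without any library in turn, whereas the others did not. Notch1 was not called without the allSC library of mouse 1 or 4 (adjusted p up to 0.072), Hes1 without the allSC library of mouse 2, 3 or 4 or the nmSC library of mouse 1 or 2 (adjusted p up to 0.121), and Spen in 7 of the 8 fits, all but the 1 without the nmSC library of mouse 2 (adjusted p up to 0.181). The mean of allSC lay between the means of mSC and nmSC for 20 of the 30 members (66.7%), beside 69.5% of all genes.

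A further list of 38 pathway genes held ligand-modifying enzymes, gamma-secretase partners, coactivators, corepressors and degradation factors, of which 34 were tested. Between mSC and nmSC, 8 were higher and 8 lower (47.1% of those tested), with a median log2 fold change of 0.032. Beside these stand 40.5% of all genes and a median of -0.16. With library size alone, 3 were higher and 19 lower, beside 63.7% of all genes called, of which 12.2% were higher. The Tle genes encode Groucho corepressors that Hes and Hey proteins recruit. Of the 5 tested, Tle1 and Tle2 were higher in mSC and Tle3 was lower, under all 4 scalings, while Tle4 and Tle5 did not pass (adjusted p = 0.118 and 0.948). Tle3 was at 5.09, 6.68, 8.61 and 5.73 CPM in mSC, at 27.1, 28.1, 29.4 and 35.2 CPM in allSC and at 52.4, 47.7, 50.4 and 37.9 CPM in nmSC. The gates did not overlap, and the log2 fold change was -2.85 (SE 0.176, adjusted p = 1.65e-10). Tle1 was at 32.2, 31.2, 24.4 and 28.4 CPM in mSC and at 10.3, 10.5, 11.8 and 17.8 CPM in nmSC (log2 fold change 1.20, SE 0.173, adjusted p = 1.56e-05). Tle2 was at 32.6, 22.8, 26.1 and 15.7 CPM in mSC and at 8.73, 6.88, 8.14 and 5.8 CPM in nmSC (log2 fold change 1.73, SE 0.209, adjusted p = 1.74e-06). For both genes, all mSC libraries lay above all nmSC libraries.

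Aph1a, a gamma-secretase subunit, was at 60.8, 78.1, 79.4 and 113 CPM in mSC and at 44.4, 42.7, 48.4 and 41.7 CPM in nmSC, and the highest value was again that of the mSC library of mouse 4 (log2 fold change 0.90, SE 0.155, adjusted p = 0.000109). Its relatives Aph1b and Aph1c were also higher (log2 fold changes of 0.83 and 0.83, adjusted p = 0.000831 and 0.00296). Neither was called with library size alone. These are near-identical copies of one another, so how their reads were split between them is uncertain. Cntn1, an adhesion protein reported to bind Notch, was 37.2 CPM ± 11.5 and 82.2 CPM ± 12 (log2 fold change -1.14, adjusted p = 7.2e-05). Nrarp, a textbook target and inhibitor of Notch, was at 0.407, 2.52, 3.57 and 2.87 CPM in mSC and at 4.42, 5.86, 3.81 and 5.66 CPM in nmSC. It did not pass (log2 fold change -1.10, SE 0.45, adjusted p = 0.0578), but it did with the mouse as a block (adjusted p = 0.0161).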

How the data were processed

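RNA of SCs from 4 mice was sequenced after Smart-Seq2, a full-length cDNA method primed on poly(A) tails and amplified by PCR, without molecular identifiers or strand. The authors used STAR to align trimmed reads and featureCounts to count them, and the deposited values are raw counts per gene without normalization. The submitters' processing notes name bcl2fastq, STAR 2.6.1c and the mouse build GRCm38.p5, while the methods text names a human build. How strand, overlapping genes and multi-mapping reads were handled is not given in the sources used here. Of the 25700 identifiers, 25587 matched GENCODE M21.

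From the counts, edgeR 4.0.16 (R 4.3.3) gave TMM factors, genes with few counts were dropped (filterByExpr on gate), and differences between gates were tested by edgeR's quasi-likelihood F-test over the 12 libraries together, with Benjamini-Hochberg adjustment over all 18597 genes tested and a threshold of 0.05. The SE is the size of the log2 fold change divided by the square root of F. Intervals cover counting error and the spread between the libraries of a gate, which includes differences between mice. The floor of 3 counts covers counting error only, and PCR reads are not independent molecules. No libraries were duplicates, since the chi-square of counts per degree of freedom was at least 4.03 in every pair of a gate. The pairing of libraries across gates comes from the labels, whose subject number is shared by 1 library of each gate, and 1 mouse gave each cell suspension. Of 12 correlations between deviations of same-numbered libraries from their gate means, 4 were above 0.1 (range -0.225 to 0.246). Between mSC and nmSC they were -0.225, 0.0591, 0.153 and -0.129 for mice 1 to 4, with a mean of -0.035. In the paper, each gate had samples of both sexes, and the samples of a gate clustered in pairs of the same sex. The labels do not say which mouse was of which sex, so sex was not used. The spread within a gate thus includes any difference by sex. The members and gene lists were chosen with earlier results of these data known.

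All members may be named. Full statistics are given for members past this threshold in the comparison of mSC with nmSC and for the receptors, Jag1, Hes1, Hey1 and Rbpj, and values for other members are given where a sentence needs them. Of other pathway genes, the 3 with the largest change in each direction are named among those past the threshold with a mean of at least 5 CPM. One gene that this rule names is not reported here. Neither Nrarp, Aph1b nor Aph1c was among these, and they were named after their values were seen. The alternatives were the size factors of DESeq2 1.42.0, library size alone, library size less the 50 most counted genes, the Wald test of DESeq2, no filter, at least 1 CPM in at least 4 libraries, only the gates compared, the mouse as a block, and each library left out. On simulated counts with 200 changed genes (mSC against nmSC, 5 draws, 18008 genes on average), edgeR recovered 75.3% with 3.72% false calls and DESeq2 74.4% with 8.05%.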

Additional observations from a re-analysis of the deposited data

Results flagged for a closer look

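Outlying libraries were sought by Dixon's test at the 95% level in 90 groups of 4 libraries (30 members in 3 gates), of which chance alone gives about 1 in 20, and 2 were found. Jag1 in the nmSC library of mouse 3 was at 5.08 CPM, under the other nmSC libraries at 7.47 to 7.78 CPM. Dtx3 in the allSC library of mouse 4 was at 16.5 CPM, above the other allSC libraries at 12.3 to 12.9 CPM.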

How the results depend on the processing

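Between mSC and nmSC, the number of members lower in mSC was 10 as reported, 6 with the size factors of DESeq2 in edgeR, with its Wald test, without a filter and with only these gates in the model, and 20 with library size alone, where the number higher was 2 instead of 5. Rbpj, Spen, Hey1 and Dtx4 were the genes lost in all 4 of the settings that gave 6. Leaving out a library gave 11 to 15 members in all, 4 to 7 higher and 7 to 9 lower, and 10 of the 15 called members passed without each library in turn. Between mSC and allSC there were 8 members as reported (3 higher, 5 lower), 5 to 9 without a library, and none higher and 9 lower with library size alone. Between allSC and nmSC there were 4, and 9 with library size alone, 8 without the 50 genes with the most counts and 1 to 3 without a library. Over all genes, library size alone gave 1448 higher and 10392 lower calls between mSC and nmSC in place of 3794 and 3746, and library size without the 50 genes gave 2058 and 7635. The share of higher calls fell from 49.9 to 9.52% between mSC and allSC and from 72.8 to 25.3% between allSC and nmSC with library size alone.

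The share of Notch2 among the receptors was 54.1% in mSC and 21.8% in nmSC per exon length. It was 45.1 and 16.2% with the longest transcript, and 48 and 17.8% without division by length. A length is the same in every library, so these values are no check of the direction. Signs turned in members that had not passed. Rfng turned to -0.49 with library size alone, -0.29 without the 50 genes and ranged from -0.003 to 0.18 without a library. Adam17 turned to 0.027 with the size factors of DESeq2 and with its Wald test, and ranged from -0.13 to 0.16 without a library. With library size alone Psen2 turned to -0.15, Psenen to -0.037 and Dtx2 to -0.30, and Dtx2 to -0.10 without the 50 genes. Without a library, Notch4 ranged from -0.26 to 0.021 and Jag2 from -0.36 to 0.15. The cause of these moves was not tested.

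With the mouse as a replicate block, 14 members passed between mSC and nmSC (5 higher and 9 lower, without Spen), 6 between mSC and allSC (without Hes6 and Maml3) and 3 between allSC and nmSC (without Spen), and 16 of the other pathway genes passed, 15 of them the same genes, with Nedd4 lost and Nrarp gained. It changed no other call of a member. Depth limits Dll1, Dll3, Dll4, Hes5 and Hes7, which were tested only without the filter, where Dll1 was gained between mSC and allSC and Maml3 lost, and the ligand shares, which rest on as few as 27 counts. On simulated counts, the false calls of DESeq2 averaged 8.05% (4.61 to 13.3% over 5 draws), above its nominal rate. Those counts had 200 changed genes, while 40.5% of all genes were called between mSC and nmSC here. The rate need not hold for the real libraries.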
